A study of Mus musculus with 4 samples.

Results

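The glucocorticoid receptor gene Nr3c1 and 8 genes known as its targets or feedback regulators (Tsc22d3, Fkbp5, Sgk1, Zbtb16, Angptl4, Klf9, Ddit4 and Cebpd) were followed through single nuclei of mouse liver. The 9 genes were taken by symbol from the 32285 genes listed for each library, and each of them had UMIs in all 4 libraries. Nuclei came from frozen liver of male wild type C57BL6/J mice, an inbred strain. The young group held 2 libraries of 2-month-old mice and the aged group 2 libraries of 30-month-old mice, with no treatment named in either. The libraries of a group are labelled as replicates. The labels used here do not say whether each came from a separate animal or a pool, nor the hour of the day or the feeding state at collection. The p-values below therefore measure the spread between these libraries, which may be technical.

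Each UMI (unique molecular identifier) stands for 1 captured RNA molecule, and levels are given as CPM, the UMIs of a gene scaled to a fixed total of UMIs for each class of nuclei in 1 library. Total UMIs per library ran from 11799751 to 54777101, and 33262 nuclei were kept after filtering. Hepatocyte-like nuclei numbered 24251, stellate/fibroblast-like 2615, endothelial-like 2328 and macrophage-like 908. These 4 classes had at least 20 nuclei in each library and were tested; T/NK-like, B-like, cholangiocyte-like and dendritic-like nuclei did not and are described by values. The classes were rebuilt from marker genes with the 9 members kept out of the clustering, and may differ from names the study used. All 11 stellate/fibroblast markers, all 10 endothelial markers and all 10 macrophage markers were detected in their own class in every library. All of them were also detected in the hepatocyte-like nuclei of every library. The clusters were named by these same markers, so their detection is no independent check of the classes. Hepatocyte transcripts were also counted in the other classes; whether they came from free RNA, doublets or mixed nuclei was not tested. The median of 12 hepatocyte transcripts there reached 9.12% to 59.9% of the hepatocyte level in stellate/fibroblast-like nuclei, 25.5% to 86.0% in endothelial-like nuclei and 43.1% to 88.0% in macrophage-like nuclei. From 1 to 43 cell barcodes were shared between any pair of libraries.

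Glucocorticoids reach hepatocytes bound to a plasma carrier, enter the cell and release the receptor from a chaperone complex. The receptor then binds DNA, typically at an inverted repeat of the hexamer AGAACA with a spacer of 3 bases, and activates genes of glucose production, amino acid breakdown and feedback control. In liver the hormone acts with the daily rhythm and with fasting, when it supports gluconeogenesis.

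Promoter sequences from RefSeq (GRCm38.p6) were found for 5 of the 9 members, 12 promoters in all: Sgk1 (6), Tsc22d3 (3), Fkbp5, Klf9 and Ddit4. The full palindrome (AGAACA, any 3 bases, TGTTCT), searched on both strands in 300-base windows, was in 1 of these 12 promoters and in 3 of 32851 promoters of the genome table (0.00913%). The hexamer AGAACA alone, which every full palindrome also holds, was in 4 of the 12 promoters (3 of Sgk1 and 1 of Tsc22d3) and in 19.0% of all. The stretches shown belong to members whose level differed between classes (Sgk1, Tsc22d3) or declined along the lobule in the aged libraries (Fkbp5). They are 5′ to 3′ on the strand of the gene, end at or before the annotated start, and carry in capitals the palindrome, the hexamer or, for Fkbp5, the E-box CACGTG, a motif of clock and other factors that 7.15% of all promoters hold.
Sgk1, chr10:21993640-21993889, plus strand: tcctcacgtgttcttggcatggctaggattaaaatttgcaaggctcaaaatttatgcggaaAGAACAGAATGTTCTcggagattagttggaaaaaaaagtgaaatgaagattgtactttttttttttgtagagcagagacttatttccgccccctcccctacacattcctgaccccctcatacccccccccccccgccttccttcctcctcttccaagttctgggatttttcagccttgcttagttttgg
Sgk1, chr10:21881934-21882183, plus strand: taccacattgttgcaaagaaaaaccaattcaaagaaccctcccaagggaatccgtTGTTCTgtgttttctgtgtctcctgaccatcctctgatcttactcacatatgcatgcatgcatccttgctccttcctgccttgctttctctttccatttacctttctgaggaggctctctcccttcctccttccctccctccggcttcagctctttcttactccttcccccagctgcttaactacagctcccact
Tsc22d3, chrX:140600660-140600772, minus strand: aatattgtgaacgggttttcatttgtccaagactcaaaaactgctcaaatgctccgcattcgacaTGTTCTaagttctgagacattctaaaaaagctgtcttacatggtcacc
Fkbp5, chr17:28486150-28486399, minus strand: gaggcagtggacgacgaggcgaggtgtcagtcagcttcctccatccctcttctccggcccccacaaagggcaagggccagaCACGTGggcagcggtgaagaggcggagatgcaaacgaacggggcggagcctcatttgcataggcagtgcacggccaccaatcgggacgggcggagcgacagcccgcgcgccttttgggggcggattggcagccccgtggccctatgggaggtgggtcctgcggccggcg
The palindrome in the Sgk1 promoter lies at chr10:21993701-21993715, with 174 bases between it and that start site. The window holds 3 copies of the hexamer, 2 of them inside the palindrome, and 1 E-box; the remaining hexamer and the E-box overlap near the start of the stretch and are left in lower case. The UMIs are counted per gene, so the data do not say which of the Sgk1 starts was used, and a match of letters is not a measured binding site.

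In the mm10 build with GENCODE vM21, Sgk1 spans chr10:21882184-21999903, Tsc22d3 chrX:140539528-140600659, Fkbp5 chr17:28399094-28517527, Zbtb16 chr9:48654297-48836222, Klf9 chr19:23141226-23168134, Angptl4 chr17:33773750-33781830, Ddit4 chr10:59949669-59951834 and Cebpd chr16:15887286-15891031. All are protein-coding. Fkbp5 overlaps 4 other annotated noncoding genes, Klf9 overlaps Mir1192, and Cebpd overlaps Spidr on the opposite strand. Whether the counting used strand is not given in the sources used here, so reads of Cebpd and Spidr may not be separable.

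The receptor gene did not differ past the threshold between the 4 tested classes or between the ages. In hepatocyte-like nuclei Nr3c1 stood at 252.5 and 270.6 CPM in the young libraries and at 247.3 and 328.7 CPM in the aged ones, so the groups overlapped (log2 fold change 0.19, SE 0.32, adjusted p = 0.786, edgeR). Its mean over the 4 libraries was 275 CPM ± 37.3 (SD, n = 4) in hepatocyte-like, 294 ± 37.1 in stellate/fibroblast-like, 298 ± 26.6 in endothelial-like and 314 ± 76.5 in macrophage-like nuclei. The ranges of the library values overlapped between the 4 classes. The part of hepatocyte RNA in the values outside hepatocyte-like nuclei was not tested. In stellate/fibroblast-like nuclei both aged libraries (333.2 and 318.2 CPM) lay above both young ones (256.9 and 268.6 CPM), and in macrophage-like nuclei the same order was seen (318.5 and 417.6 against 237.2 and 284.2 CPM). Neither difference passed the test (adjusted p = 0.754 and 0.368).

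The question of whether the target genes differed with age in hepatocytes was asked first of the hepatocyte-like nuclei. These nuclei clustered largely by library. The cluster of 1511 nuclei held 1496 of young 1, those of 3540 and 4146 held 3516 and 4076 of young 2, those of 1685 and 2401 held 1680 and 2391 of aged 1, and those of 1946 and 3893 held 1930 and 3860 of aged 2. The ages were therefore compared over mostly different clusters. Of the 9 members, 5 had both aged libraries below both young ones (Tsc22d3, Sgk1, Angptl4, Ddit4 and Cebpd), and none had both above. Over all 15467 genes tested the same order was found in 29% downward and 23.5% upward. No member passed the adjusted threshold of 0.05 in edgeR's quasi-likelihood test. Only 2 of 15467 genes did (0.0129%), 3018 genes had an unadjusted p under 0.05, and in simulated data of this size the test recovered 1.01% of 2-fold and 42% of 4-fold changes. The median log2 fold change of the members was -0.55, beside -0.02 over all genes.

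Sgk1 encodes a serum- and glucocorticoid-induced kinase that acts on ion channels and survival signals. Its level in hepatocyte-like nuclei was 8.47 and 20.5 CPM in the young libraries (74 and 203 UMIs) and 3.42 and 2.95 CPM in the aged pair (58 and 98 UMIs). Both aged values were below the lower young value. The log2 fold change was -2.09 (SE 0.50, adjusted p = 0.165), the largest in size of the 9 members. DESeq2 called it (log2 fold change -2.04, adjusted p = 0.00863), as did edgeR with no filter on low counts (-2.05, adjusted p = 0.00191). Markers of the 3 other tested classes, in which Sgk1 was higher, also had lower values in these aged nuclei. The summed stellate/fibroblast markers were 397.5 and 208.8 CPM in young hepatocyte-like nuclei against 93.1 and 114.7 CPM in aged ones, and the endothelial markers were 210.4 and 141.8 against 84.7 and 66.4 CPM, and the macrophage markers 54.4 and 74.2 against 24.6 and 10.9 CPM. The T/NK markers went up, from 19.1 and 21.1 to 79.5 and 52.95 CPM. The cholangiocyte markers overlapped (158.7 and 282.6 against 252.1 and 192.3 CPM), although Sgk1 was higher in cholangiocyte-like than in hepatocyte-like nuclei of each library. Their part in the Sgk1 result was not tested.

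Angptl4, a secreted inhibitor of lipoprotein lipase that also responds to fatty acid receptors, stood at 85.0 and 69.2 CPM in the young hepatocyte-like nuclei and 38.9 and 35.6 CPM in the aged ones. The 2 ages did not overlap, and the log2 fold change of -1.01 (SE 0.32) had an unadjusted p of 0.0161 and an adjusted p of 0.196. Tsc22d3 encodes the leucine zipper protein GILZ, a mediator of the anti-inflammatory action of the hormone. It stood at 254.7 and 405.0 CPM in young and 173.2 and 228.7 CPM in aged hepatocyte-like nuclei (log2 fold change -0.64, SE 0.34, adjusted p = 0.343). Ddit4, an inhibitor of the growth kinase complex mTORC1, was near the limit of these libraries at 3.43 and 4.84 CPM in young and 1.89 and 2.05 CPM in aged nuclei (log2 fold change -1.004, SE 0.51, adjusted p = 0.321). Cebpd, a transcription factor of the acute phase, showed 6.07 and 7.67 against 5.13 and 3.85 CPM (log2 fold change -0.55, SE 0.45, adjusted p = 0.541). For all of these the 2 young and the 2 aged values did not overlap, and for none did the difference pass the adjusted threshold.

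The other target genes overlapped between the ages. Fkbp5, a co-chaperone that lowers the hormone affinity of the receptor and so closes a feedback loop, was at 199.4 and 348.4 CPM in young and 282.6 and 281.9 CPM in aged hepatocyte-like nuclei (log2 fold change 0.12, SE 0.35, adjusted p = 0.878). Its 2 young libraries bracketed the 2 aged ones, and without young replicate 1 the sign turned (-0.14). Klf9, a zinc finger transcription factor, was at 191.5, 182.3, 180.7 and 274.9 CPM in young 1, young 2, aged 1 and aged 2 (adjusted p = 0.634). Zbtb16, the transcription factor PLZF, varied more within the aged group than between groups: 497.9 and 697.9 CPM in the young libraries against 401.1 and 1186 CPM in aged 1 and aged 2 (log2 fold change 0.46, SE 0.55, adjusted p = 0.683). Leaving out aged replicate 2 turned its sign (-0.44). Short genes were lower in the aged libraries more often than long ones: both aged libraries were below both young ones for 32.3% of tested genes under 10 kb and for 18.1% of those of 100 kb or more. Angptl4 (8.08 kb), Ddit4 (2.17 kb) and Cebpd (3.75 kb) are under 10 kb, whereas Tsc22d3 (61.1 kb) and Sgk1 (118 kb) are not; the part of gene length in these values was not tested.

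**Figure D1:**
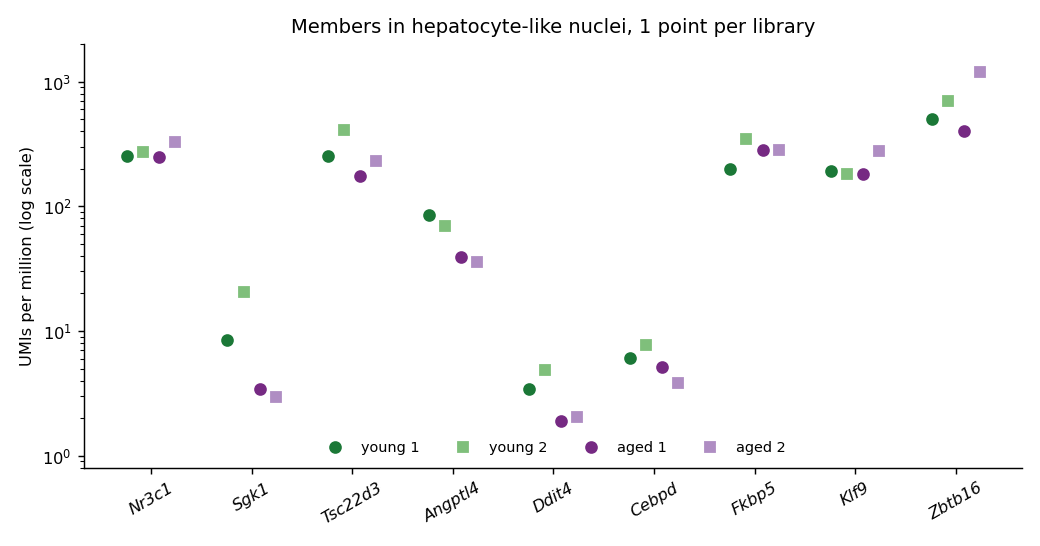
Level of each member in hepatocyte-like nuclei of the 4 libraries, in CPM on a log axis, with 1 point per library (circles and squares are replicates 1 and 2). Both aged points lie below both young points for Sgk1, Tsc22d3, Angptl4, Ddit4 and Cebpd, and the ages overlap for the other 4 genes; levels of different genes are not compared.

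The classes differed in 4 of the members. Against hepatocyte-like nuclei, 3 of 8 members tested passed in stellate/fibroblast-like nuclei (42.6% of all genes did), 1 of 8 in endothelial-like nuclei (9.04%) and 2 of 8 in macrophage-like nuclei (12.7%); Ddit4 was too low for the test in all 3. These comparisons take the library as a block, and the part of hepatocyte RNA in them was not tested. The median log2 fold change of all genes was -0.03, -0.10 and -0.09.

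Sgk1 was higher in all 3 other tested classes. Stellate/fibroblast-like nuclei had 166.3, 61.6, 104.1 and 33.02 CPM in young 1, young 2, aged 1 and aged 2, endothelial-like nuclei 118.8, 48.7, 76.6 and 14.4 CPM, and macrophage-like nuclei 8.78 (1 UMI), 48.7, 46.2 and 44.3 CPM. Each of these values exceeded the hepatocyte-like value of the same library, and the stellate/fibroblast-like level was 300.6% to 3042% of that value. The log2 difference was 3.398 (SE 0.53, adjusted p = 0.000161) in stellate/fibroblast-like, 2.52 (SE 0.54, adjusted p = 0.00557) in endothelial-like and 2.34 (SE 0.61, adjusted p = 0.0188) in macrophage-like nuclei. In macrophage-like nuclei it no longer passed without aged replicate 1 (adjusted p = 0.0980), without aged replicate 2 (0.160) and with equal numbers of nuclei (0.401). With nuclei rich in hepatocyte RNA left out the difference in endothelial-like nuclei was 3.73 (adjusted p = 0.000125).

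The share of nuclei with a Sgk1 UMI was compared after thinning every nucleus to 500 UMIs. In stellate/fibroblast-like nuclei it was 8.65%, 3.35%, 5.26% and 1.83% in young 1, young 2, aged 1 and aged 2, with exact 95% binomial intervals of 5.02% to 13.7%, 2.29% to 4.72%, 3.04% to 8.41% and 1.15% to 2.76%. In hepatocyte-like nuclei it was 0.325%, 1.18%, 0.164% and 0.241%, with intervals of 0.106% to 0.758%, 0.966% to 1.43%, 0.0748% to 0.310% and 0.147% to 0.371%. The intervals of the classes did not overlap in any library. They cover counting error only. Before thinning the shares were 15.1%, 5.51%, 9.87% and 3.75% against 4.29%, 2.23%, 1.02% and 1.10%, at median depths of 862, 732, 1004 and 988.5 UMIs against 3805, 924, 2111 and 2992 UMIs.

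Cebpd was higher in stellate/fibroblast-like nuclei, at 45.3, 26.9, 83.3 and 16.9 CPM (9, 24, 28 and 24 UMIs) in the order given above, than in the hepatocyte-like nuclei of the same libraries, where no value exceeded 7.67 CPM. The log2 difference was 2.67 (SE 0.41, adjusted p = 0.000153). It was too low to be tested without young replicate 2, with equal numbers of nuclei and with nuclei rich in hepatocyte RNA left out. In endothelial-like nuclei (0, 9.60, 22.3 and 5.56 CPM) and macrophage-like nuclei (0, 17.5, 9.23 and 3.69 CPM) the difference did not pass (adjusted p = 0.429 and 0.585); with no UMI in young 1, a level of up to 27.4 and 26.3 CPM (3 UMIs) is allowed there.

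Tsc22d3 went the other way and was lower in stellate/fibroblast-like nuclei, at 65.5, 265.3, 20.8 and 78.7 CPM (log2 difference -1.56, SE 0.31, adjusted p = 0.00119). These are 25.7%, 65.5%, 12.02% and 34.4% of the hepatocyte level of the same library. Medians of the 12 hepatocyte transcripts in the same nuclei were 20.7%, 59.9%, 9.12% and 28.9%. Single transcripts ran from 14.88% to 69.61%, 54.28% to 81.82%, 4.465% to 55.17% and 20.84% to 75.47%, and Tsc22d3 lay within each range. In endothelial-like nuclei Tsc22d3 was at 104% (29 UMIs), 99.5%, 133% and 98.9% of the hepatocyte level. Medians of the 12 hepatocyte transcripts there were 77.7%, 86.0%, 25.5% and 84.6%, and the highest single transcript reached 111.2%, 98.47%, 67.77% and 91.21%. Tsc22d3 was thus above the median in each library, but inside the spread of the transcripts in young 1. How much of these values came from hepatocyte RNA was not tested. The difference of Tsc22d3 between endothelial-like and hepatocyte-like nuclei was -0.08 (adjusted p = 0.928).

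Zbtb16 was lower in macrophage-like nuclei, at 395.3, 650.1, 203.1 and 510.0 CPM (log2 difference -0.81, SE 0.25, adjusted p = 0.0443). This call was lost with RLE size factors (adjusted p = 0.0571), without doublet removal (0.0666), with at most 1% mitochondrial UMIs (0.0636), with equal numbers of nuclei (0.457) and without any 1 of young 1, aged 1 or aged 2 (0.107 to 0.309). With nuclei rich in hepatocyte RNA left out, Zbtb16 (-1.38, adjusted p = 0.00160) and Klf9 (-0.87, adjusted p = 0.0164) were lower in endothelial-like than in hepatocyte-like nuclei. Angptl4 gave log2 differences of -0.65, -0.74 and -0.85 in stellate/fibroblast-like, endothelial-like and macrophage-like nuclei, which did not pass (adjusted p = 0.0534, 0.0979 and 0.0616). Fkbp5 did not pass in any class, with means of 314 CPM ± 80.8 (SD, n = 4) in stellate/fibroblast-like, 297.5 ± 41.8 in endothelial-like, 363 ± 98.3 in macrophage-like and 278 ± 61.0 in hepatocyte-like nuclei.

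**Figure D2:**
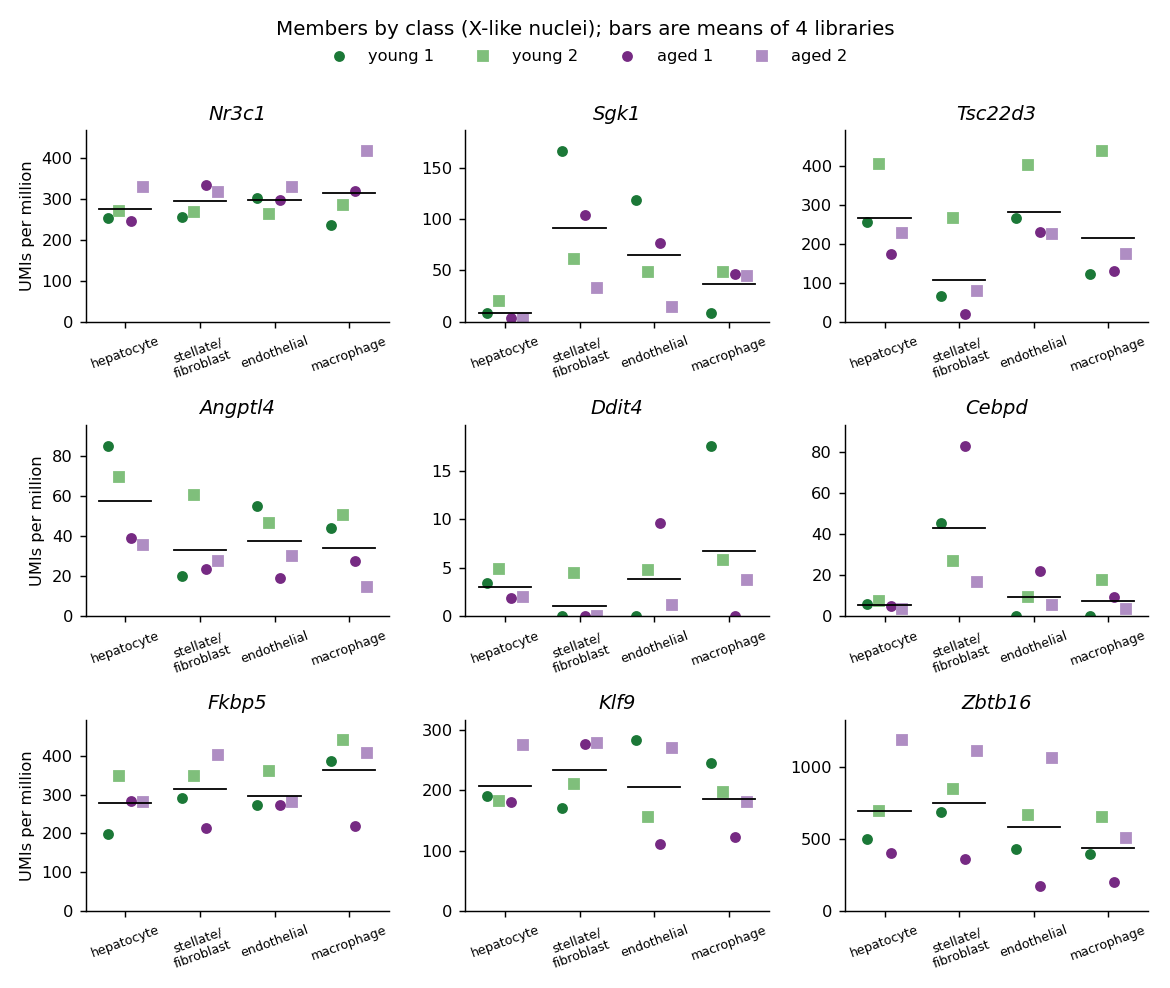
Level of each member by class, in CPM with 1 point per library and a bar at the mean of the 4 libraries. Sgk1 is at 33.02 to 166.3 CPM in stellate/fibroblast-like nuclei and at 2.95 to 20.5 CPM in hepatocyte-like nuclei, Cebpd has its highest mean in stellate/fibroblast-like nuclei (43.1 CPM), and the points of Nr3c1 and Fkbp5 overlap between the 4 classes.

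In the smaller classes the counts allowed less. Nr3c1 was at 721.6, 311.0, 602.8 and 359.9 CPM in T/NK-like nuclei (21, 44, 42 and 79 UMIs), above the hepatocyte-like value of the same library in each case. Cholangiocyte-like nuclei held Sgk1 at 88.9, 44.8, 107.4 and 53.2 CPM (3, 10, 7 and 7 UMIs). No test was made in these classes, since at least 1 library had under 20 nuclei.

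Age was then examined within the other classes. No member passed in stellate/fibroblast-like (8 tested, 1 with an unadjusted p under 0.05), endothelial-like (7 tested, 0 unadjusted) or macrophage-like nuclei (7 tested, 0 unadjusted), and DESeq2 called none in these classes either. Of all genes, 0% passed in stellate/fibroblast-like nuclei (899 with an unadjusted p under 0.05, 32 genes by DESeq2), 0% in endothelial-like nuclei (301 unadjusted, 2 by DESeq2) and 10.7% in macrophage-like nuclei. Both aged libraries lay below both young ones for Angptl4 and Tsc22d3 in endothelial-like nuclei and for Angptl4 and Klf9 in macrophage-like nuclei, and for no member in stellate/fibroblast-like nuclei. That order was found in 20.4%, 26.9% and 23.3% of all genes tested in these classes. Both aged libraries lay above for Nr3c1 and Klf9 in stellate/fibroblast-like nuclei (18.4% of genes), for Nr3c1 in macrophage-like nuclei (29% of genes) and for none in endothelial-like nuclei (14% of genes). On the TMM scale that the test uses, Nr3c1 was also above in both aged endothelial-like libraries (313.1 and 362.0 against 292.6 and 265.3 CPM).

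Angptl4 had a lower aged mean in each of the 3 classes, though in none did it pass. Its values in young 1, young 2, aged 1 and aged 2 were 54.8, 46.6, 19.2 and 30.2 CPM in endothelial-like nuclei (log2 fold change -0.80, SE 0.55, adjusted p = 1.00), 43.9, 50.6, 27.7 and 14.8 CPM in macrophage-like nuclei (-1.11, SE 0.52, adjusted p = 0.208) and 20.2, 60.4, 23.8 and 27.4 CPM in stellate/fibroblast-like nuclei (-0.70, SE 0.55, adjusted p = 0.696). They rest on 6, 68, 6 and 103 UMIs in endothelial-like nuclei and 5, 26, 12 and 4 UMIs in macrophage-like nuclei. In stellate/fibroblast-like nuclei there were 4, 54, 8 and 39 UMIs. The part of hepatocyte RNA in these values was not tested. Tsc22d3 gave log2 fold changes of -1.59 (SE 0.68, adjusted p = 0.455) in stellate/fibroblast-like, -0.45 (SE 0.50, adjusted p = 1.00) in endothelial-like and -1.01 (SE 0.47, adjusted p = 0.202) in macrophage-like nuclei. Without young replicate 1 the macrophage-like value was -1.50, and over all cases of 1 library left out it ran from -1.50 to 0.26. The stellate/fibroblast-like value ran from -2.86 to -0.19 and rests on 13, 237, 7 and 112 UMIs in young 1, young 2, aged 1 and aged 2. In that order, medians of the 12 hepatocyte transcripts in these nuclei were 20.7%, 59.9%, 9.12% and 28.9% of the hepatocyte level. The part of hepatocyte RNA in the Tsc22d3 values was not tested. Sgk1 overlapped between the ages in all 3 classes, with log2 fold changes of -0.63, -0.79 and 0.28 (SE 0.69, 0.89 and 0.56).

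Whether the age difference of a member differed between classes was tested with a class by age term. None of the members passed in stellate/fibroblast-like (smallest adjusted p = 0.706), endothelial-like (adjusted p = 1.00) or macrophage-like nuclei (0.459), where 0.0388%, 0% and 1.37% of all genes passed in edgeR (983, 407 and 1156 genes had an unadjusted p under 0.05). The term with the largest size was that of Sgk1 in macrophage-like nuclei, at 2.18 (SE 1.04). Without 1 library it ran from 2.13 to 3.51.

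Hepatocytes differ along the lobule, from the periportal end, which receives blood, to the pericentral end, where it leaves. Hepatocyte-like nuclei were ordered in each library by 24 landmark genes, and the 512, 2965, 1834 and 2771 nuclei at either end of young 1, young 2, aged 1 and aged 2 were compared. No member passed between the ends, where 21.2% of all genes did (3 members had an unadjusted p under 0.05). Zbtb16 gave a log2 difference of -0.35 (SE 0.11, adjusted p = 0.0521, edgeR) for the pericentral end. It passed in several alternatives, such as without aged replicate 2 (-0.44, adjusted p = 0.0289) and with equal numbers of nuclei (-0.36, adjusted p = 0.0420). In others it did not (adjusted p up to 0.153), and without 1 library the value ran from -0.44 to -0.18. Its ratio of pericentral to periportal level was 0.858 in young 1, 0.834 in young 2, 0.556 in aged 1 and 0.937 in aged 2. Cebpd differed by 0.45 (SE 0.20, adjusted p = 0.155). Nr3c1 differed by -0.08 (adjusted p = 0.540). The ordered nuclei of each library were also split into 5 bins of near equal numbers of nuclei. From the first to the last bin Nr3c1 went from 249.3 to 250.8 CPM in young 1 and 260.4 to 260.4 in young 2. It went from 284.0 to 221.5 CPM in aged 1 and 323.0 to 330.1 in aged 2.

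Fkbp5 had its lowest levels at the pericentral end in the aged libraries. In the 5 bins from periportal to pericentral aged 1 had 416.3, 376.2, 300.4, 229.1 and 121.0 CPM (1561, 1163, 844, 716 and 505 UMIs). Aged 2 had 354.2, 335.8, 292.1, 230.5 and 205.3 CPM. Young 2 had 364.9, 391.2, 340.6, 343.2 and 307.5 CPM, and young 1, with the lowest levels at the periportal end, had 182.0, 179.3, 197.8, 194.8 and 250.8 CPM. Both aged libraries thus declined from bin to bin, young 2 ended below its start and young 1 was highest in the last bin. The mean difference between the ends was -0.52 (SE 0.21, adjusted p = 0.116). The zone by age term was -1.04 (SE 0.23) with an unadjusted p of 0.00108 and an adjusted p of 0.203, so the difference between the ages did not pass over all genes, of which 0.157% did. Among alternatives that kept all 4 libraries, the term passed only with equal numbers of nuclei (-1.16, adjusted p = 0.0327, edgeR). A fit without 1 library leaves 1 age with a single library, so only its size is given. The term was -0.72 without aged replicate 1, -1.39 without aged replicate 2 and -0.81 without young replicate 1. Median depth at the periportal and pericentral ends was 3412 and 3936 UMIs in young 1 and 927 and 983 UMIs in young 2. It was 2575 and 2678 UMIs in aged 1 and 3465 and 3214 UMIs in aged 2. Over the 5 bins it was 2854, 1826, 1313, 1292 and 3210 UMIs in aged 1. In aged 2 it was 3718, 3006, 2144, 1992 and 3672 UMIs. It ran from 3222 to 4686 UMIs in young 1 and from 860 to 1009 UMIs in young 2. The part of depth in the Fkbp5 levels was not tested.

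Sgk1 had the opposite order of ends in the 2 ages. From the periportal to the pericentral end it went from 7.85 to 5.44 CPM in young 1, 24.9 to 14.9 CPM in young 2, 1.85 to 4.51 CPM in aged 1 and 1.89 to 4.09 CPM in aged 2. The zone by age term was 1.85 (SE 0.39), with an unadjusted p of 0.000789 and an adjusted p of 0.188 (edgeR). It passed in no alternative that kept all 4 libraries. Without 1 library it ran from 1.68 to 1.95. These are low counts, with 19 and 15 UMIs at the ends of young 1 and 11 and 29 UMIs at those of aged 1.

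**Figure D3:**
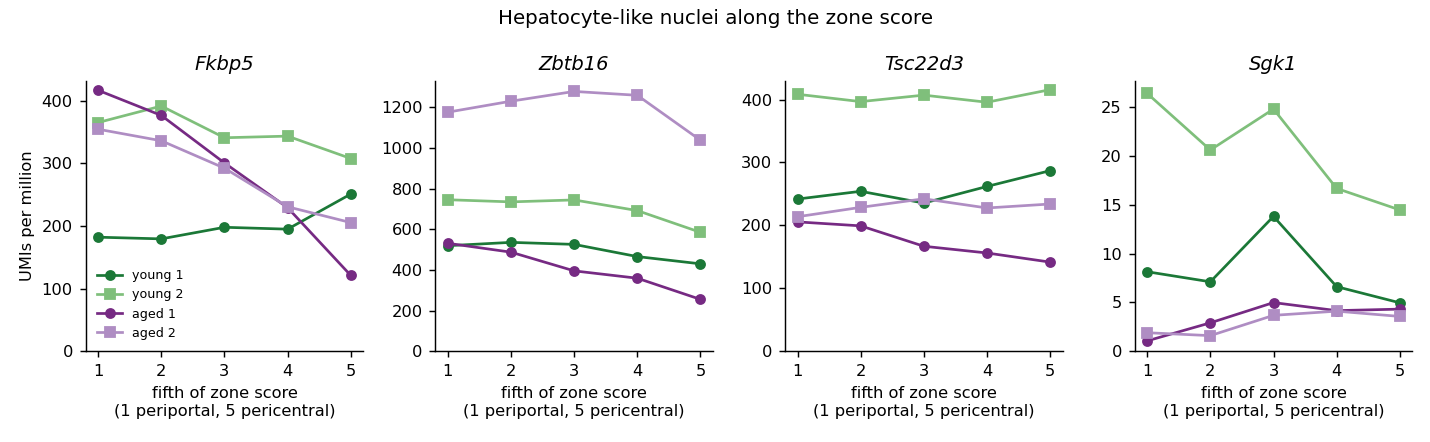
Level of Fkbp5, Zbtb16, Tsc22d3 and Sgk1 in hepatocyte-like nuclei, in CPM, with 1 line per library. The nuclei of each library were ordered by zone score and split into 5 bins of near equal numbers, from periportal (1) to pericentral (5). The score was scaled within each library, so a bin need not be the same position in each. Fkbp5 goes from 416.3 to 121.0 CPM in aged 1 and from 354.2 to 205.3 CPM in aged 2, and from 182.0 to 250.8 CPM in young 1; Sgk1 is below 6 CPM in every bin of both aged libraries.

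The wider pathway was read from 40 other genes, and 31 genes of immediate early, clock and PPAR-alpha lists were read for context. In hepatocyte-like nuclei none of them passed the age test with all 4 libraries and the filter on low counts; several did under alternatives, given below. Among the genes of ligand handling 5 of 6 were tested, with a median log2 fold change of 0.62, beside -0.02 over all genes. Akr1d1, which reduces steroid hormones, was at 200.5 and 187.3 CPM in young and 413.2 and 256.4 CPM in aged nuclei (log2 fold change 0.84, SE 0.38, adjusted p = 0.278). Serpina6, the plasma carrier of corticosteroids, was at 10.4, 35.1, 127.9 and 27.2 CPM, high in aged 1 alone (adjusted p = 0.255). H6pd, which supplies the cofactor for hormone reactivation, was at 101.9 and 107.9 against 110.6 and 116.6 CPM (adjusted p = 0.782).

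Several chaperones of the receptor complex had lower values in both aged libraries, without passing the test. Of 14 receptor, chaperone and coregulator genes, 6 had both aged values below both young ones and none above (29% and 23.5% of all genes), and the median log2 fold change was -0.22. Stip1, which joins the chaperones, was at 70.0 and 75.2 CPM in young and 32.98 and 33.1 CPM in aged nuclei (log2 fold change -1.08, SE 0.29, adjusted p = 0.178). Hsp90aa1, the inducible chaperone of the receptor, was at 83.02 and 52.96 against 40.01 and 23.98 CPM (-1.06, SE 0.43, adjusted p = 0.246). Ptges3, the p23 co-chaperone, gave -0.66 (SE 0.31, adjusted p = 0.302) and Hsp90ab1, the constitutive chaperone, -0.45 (SE 0.37, adjusted p = 0.537). Hsp90ab1 was at 141.8, 166.4, 138.1 and 77.5 CPM in young 1, young 2, aged 1 and aged 2, and without aged replicate 2 its value was -0.033.

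Of 20 other target genes known in liver, 10 had both aged values below both young ones and 2 above (29% and 23.5% of all genes), with a median log2 fold change of -0.64; none passed, and 6 had an unadjusted p under 0.05. Dusp1, a phosphatase of stress kinases, was at 105.9 and 63.7 CPM in young and 13.6 and 11.1 CPM in aged nuclei (-2.75, SE 0.42, adjusted p = 0.143). Tat, the tyrosine aminotransferase, was at 1684 and 866.4 against 128.8 and 261.1 CPM (-2.70, SE 0.59, adjusted p = 0.153). G6pc, the last enzyme of glucose release, was at 990.6 and 211.7 against 83.3 and 53.3 CPM (-3.15, SE 0.79, adjusted p = 0.174), and Gpt, alanine aminotransferase, at 122.2 and 213.3 against 54.7 and 75.3 CPM (-1.29, SE 0.34, adjusted p = 0.178). Igfbp1, which rises in fasting, was at 136.8 CPM in young 1 and at 2.52, 6.08 and 2.65 CPM in the other 3 libraries, so a single library carried its mean (it and, in the next paragraph, Per1 were chosen after their values were seen).

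The context lists also moved between libraries of 1 age. The immediate early gene Egr1 was at 3.78, 4.24, 221.0 and 9.57 CPM in young 1, young 2, aged 1 and aged 2 (adjusted p = 0.178), with aged 1 apart. Junb was higher in both aged libraries (23.3 and 24.6 against 59.95 and 34.96 CPM, adjusted p = 0.214) and Jund lower (24.5 and 28.6 against 8.62 and 15.8 CPM, adjusted p = 0.215). Among clock genes Ciart was at 12.1 and 109.2 CPM in the young libraries and 12.3 and 19.2 CPM in the aged ones (adjusted p = 0.285), and Per1, a target gene and a clock gene, at 25.8, 86.0, 36.1 and 30.7 CPM. Cry1 (-1.10, SE 0.41, adjusted p = 0.224) and Clock (-0.76, SE 0.39, adjusted p = 0.326) were lower in both aged libraries. Of the PPAR-alpha genes Acot1 was lower in both aged libraries (24.7 and 25.4 against 4.84 and 2.59 CPM, adjusted p = 0.143), while Vnn1, Cpt1a and Hadha were higher in both (adjusted p = 0.248, 0.426 and 0.548). Angptl4, which belongs to both programmes, had the order of Acot1.

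Under alternatives some of these age differences passed. With no filter on low counts they were Dusp1 (adjusted p = 8.01e-08), G6pc (7.23e-09), Tat (6.00e-06), Gpt (0.0381), Acot1 (1.91e-06), Egr1 (9.51e-21), Serpina6 (0.000389), Vnn1 (0.0460) and Ciart (0.00141). That setting called 1787 genes in all. DESeq2, which called 910 genes, called Dusp1 (5.43e-06), Acot1 (3.35e-05), Tat (0.000101) and G6pc (0.000350) among the genes named. Fits without 1 library leave 1 age with a single library, so only their sizes are given. The log2 fold change ran from -3.12 to -2.20 for Dusp1 and from -3.875 to -1.47 for G6pc. For Acot1 it ran from -3.23 to -2.25 and for Tat from -3.22 to -1.99. For Egr1 it ran from 1.30 to 5.905 and for Serpina6 from 0.355 to 2.88. For Vnn1 it ran from 0.42 to 1.97 and for Ciart from -2.63 to 0.36. Egr1, Serpina6 and Vnn1 were highest in aged 1 (221.0, 127.9 and 24.7 CPM). In aged 2 they were at 9.57, 27.2 and 8.91 CPM.

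**Figure D4:**
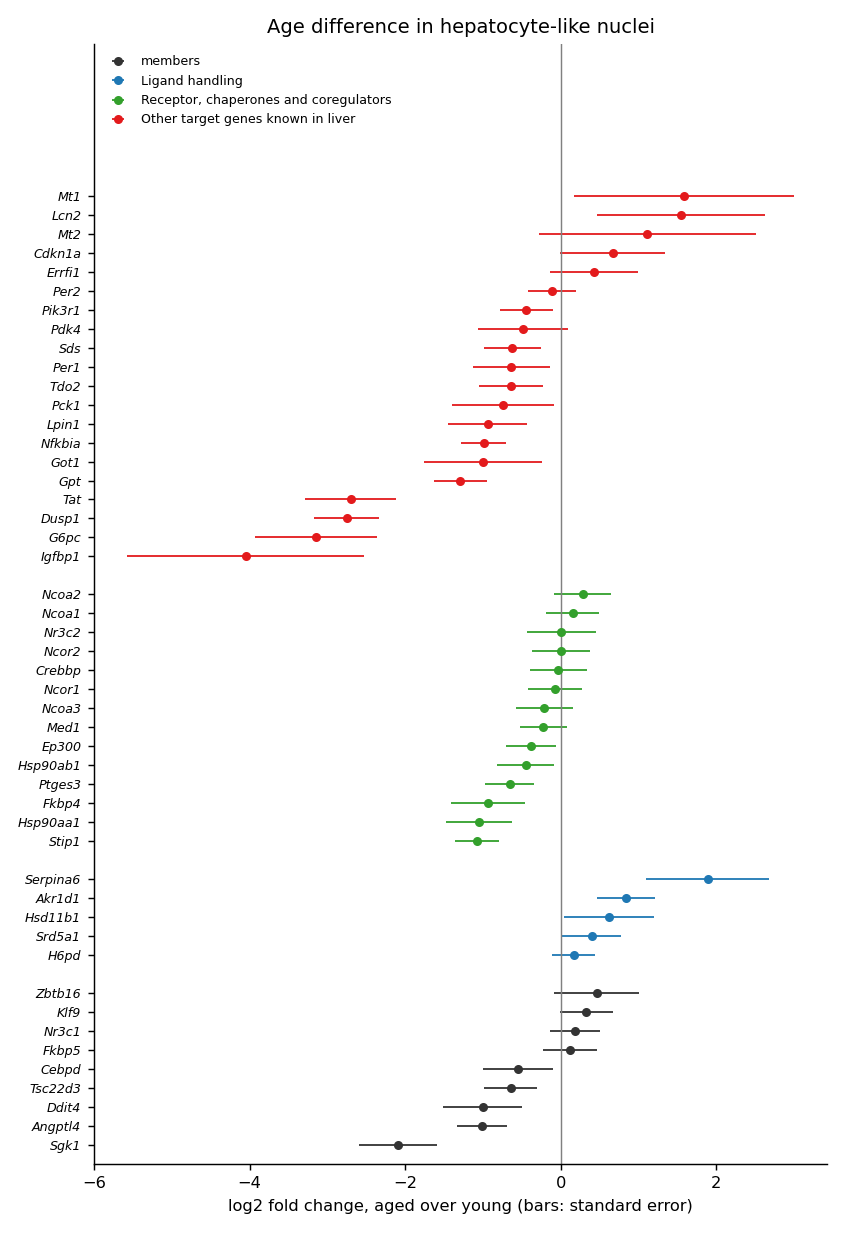
Log2 fold change of aged over young libraries in hepatocyte-like nuclei for the 9 members and the pathway genes that were tested, grouped by role, with bars of 1 standard error. Igfbp1, G6pc, Dusp1, Tat and Sgk1 lie at -2.09 or below, the 5 ligand handling genes lie above 0, and none of the genes shown passed the adjusted threshold in edgeR with all 4 libraries and the filter on low counts.

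The pathway genes were also compared along the lobule. Of 17 other target genes tested between the ends, 10 were lower at the pericentral end and 1 was higher, where 21.2% of all genes passed in either direction. Of 5 ligand handling genes 3 passed, and of 14 receptor, chaperone and coregulator genes 1 did. Sds, serine dehydratase, had the largest difference of them (log2 difference -3.19, SE 0.24, adjusted p = 2.29e-05), followed in size by Mt2 (-1.92) and Mt1 (-1.63), metallothionein genes whose pericentral level was the higher one in aged 2 alone, from few UMIs there (11 and 27 for Mt1, 2 and 5 for Mt2). Without aged replicate 1 the Mt1 difference was -0.32 and did not pass (adjusted p = 0.661). Mt2 had 4 and 4 UMIs at the periportal and pericentral ends of young 1, 36 and 11 in young 2 and 176 and 32 in aged 1. Fits without 1 library in which Mt2 was tested gave -2.205 to -1.98. Pck1 (-1.09), G6pc (-0.84), Lpin1 (-0.82), Got1 (-0.66), Tat (-0.50), Per2 (-0.44) and Per1 (-0.30) fell as well, with adjusted p from 0.000200 to 0.0273, and Nfkbia, an inhibitor of NF-kB, rose (0.40, adjusted p = 0.00986). Several of these calls were lost under alternatives, that of Per1 in 8 (adjusted p up to 0.670), and those of Got1 (up to 0.0771), Per2 (0.0865) and Nfkbia (0.288) in 1 or 2 each. Hsd11b1, the enzyme that reactivates glucocorticoid inside the cell, was lower at the pericentral end in every library, at 21.7 against 43.8 CPM in young 1, 103.1 against 172.3 in young 2, 92.8 against 201.4 in aged 1 and 52.9 against 134.7 in aged 2 (-1.07, SE 0.10, adjusted p = 9.53e-05). Srd5a1, a steroid reductase, was lower (-0.52, adjusted p = 0.0296), though in young 1 its pericentral level was the higher one (20.3 against 16.9 CPM). Serpina6 (0.52, adjusted p = 0.00208) and the mineralocorticoid receptor gene Nr3c2 (0.22, adjusted p = 0.0466) were higher. Leaving out 1 library ended the call of Srd5a1 in 3 of 4 cases (adjusted p from 0.0672 to 0.154) and that of Nr3c2 in 3 of 4 (0.127 to 0.183), and with equal numbers of nuclei neither passed (0.274 and 0.294). Of the context genes Egr1, Ier2, Cry1 and Ciart were lower at the pericentral end, and Nr1d1, Cyp4a10, Cyp4a14 and Vnn1 were higher. The calls of Ier2, Cry1, Ciart and Nr1d1 were lost in 1 to 4 alternatives each.

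The zone by age term passed for 1 pathway gene, Sds (-1.27, SE 0.17, adjusted p = 0.0207). Its ratio of pericentral to periportal level was 0.142 and 0.199 for the young libraries, and 0.0674 and 0.0733 for the aged ones. The call was lost without doublet removal (-0.70, adjusted p = 0.417). It also did not hold without young replicate 1 or without young replicate 2, which leave 1 young library.

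Between classes, 9 of 16 other target genes were lower in stellate/fibroblast-like than in hepatocyte-like nuclei and none was higher (42.6% of all genes passed in either direction), while in endothelial-like and macrophage-like nuclei 0 of 16 passed in edgeR, with 9 at an unadjusted p under 0.05 in each. Hsd11b1 was higher in stellate/fibroblast-like nuclei (1.64, SE 0.24, adjusted p = 8.25e-05), where the other 4 ligand handling genes tested were lower. Ncoa3, a coactivator of nuclear receptors, was higher in endothelial-like (1.18, SE 0.28, adjusted p = 0.0109) and macrophage-like nuclei (1.23, SE 0.28, adjusted p = 0.00794), and Fkbp4 and Nr3c2 were lower in stellate/fibroblast-like nuclei. Leaving out 1 library could end each of these 3 genes' calls (Ncoa3 adjusted p = 0.124 without aged replicate 1 in endothelial-like and 0.0674 without aged replicate 2 in macrophage-like nuclei, Fkbp4 0.227 without aged replicate 2 and Nr3c2 0.108 without young replicate 2). In macrophage-like nuclei 5 of 14 target genes were lower in the aged libraries, where 10.7% of all genes passed in either direction: Tat (-3.67), G6pc (-3.32), Gpt (-2.25), Tdo2 (-1.57) and Lpin1 (-1.54), with adjusted p from 0.00923 to 0.0320. These calls did not hold without aged replicate 1 or without aged replicate 2, which leave 1 aged library. All 5 genes were among the 9 target genes lower in stellate/fibroblast-like than in hepatocyte-like nuclei. Medians of the 12 hepatocyte transcripts were 78.6% and 88.0% of the hepatocyte level in young macrophage-like nuclei, but 43.1% and 45.2% in aged ones. Their part in the result was not tested. Egr1 (4.14) and Nr4a1 (3.84) were higher there (adjusted p = 0.0249 and 0.0135, edgeR). Both calls were lost under alternatives, among them the fit without aged replicate 2. With 1 library left out the values ran from 3.895 to 7.59 for Egr1 and from 3.43 to 7.29 for Nr4a1.

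Genes with the most similar pattern to each member were ranked by Pearson correlation of log2(CPM + 1) over the 16 sums of 4 classes and 4 libraries, which share libraries and hepatocyte RNA. For Sgk1 they were Itprid2 (r = 0.910), Ccnd2 (0.901) and Smad1 (0.895), for Cebpd Adamts1 (0.953), Lrrc8a (0.943) and Cacna1c (0.927), and for Tsc22d3 Fam102a (0.950), Zpr1 (0.936) and Pex26 (0.935). Angptl4 was closest to Phyhd1 (0.962), C1ra (0.900) and Nsmf (0.896), Nr3c1 to P2rx4 (0.876), Micu3 (0.846) and Bin1 (0.844), and Zbtb16 to Snx7 (0.899), Rif1 (0.881) and Carmil1 (0.849). Klf9 was closest to Cdk8 (0.890), Megf9 (0.862) and Alcam (0.812), and Ddit4 to Serpind1 (0.852), Wdr77 (0.852) and Mindy1 (0.847). Fkbp5 had the weakest partners, Hcfc1 (0.759), Napa (0.744) and Krt8 (0.734).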

How the data were processed

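Gene counts per cell barcode (UMIs) were deposited by the authors as 1 matrix per library, made with Cell Ranger 7.1.0 and mm10 per the submitters' processing notes. Whether introns or strand were counted is not given in the sources used here. Barcodes under 500 UMIs, under 300 genes or over 5% mitochondrial UMIs were left out. Scrublet's own threshold marked 2 barcodes in all and was not used; the highest doublet scores, at 0.8% per 1000 barcodes, were removed (3927 barcodes), which left 33262 nuclei. Nuclei were clustered in scanpy 1.11.5 on 2000 variable genes without the members and the listed pathway genes. Clusters were named by a rule set after seeing the data (for classes other than hepatocytes, at least 70% and at least 3 of the class's markers at 2-fold or more over the rest). Clusters that met this for no class were called hepatocyte-like where under 50% of any other large class's markers were at 2-fold and at least 6 of 10 hepatocyte markers reached 50% of their level over all nuclei. No hepatocyte-like cluster had more than 3 of 10 markers at 2-fold. In all, 1896 nuclei stayed unnamed.

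Counts were summed per library and class and tested with edgeR 4.0.16 in R 4.3.3 (quasi-likelihood test, TMM scaling, filterByExpr, Benjamini-Hochberg adjustment over all genes tested, threshold 0.05). Age was fitted within a class, and class and zone with the library as a block. DESeq2 1.42.0, RLE size factors, no filter on low counts, each library left out, a replicate block, no doublet removal, at least 1000 UMIs, at most 1% mitochondrial UMIs, equal numbers of nuclei, a filter on hepatocyte RNA and zones of 50% were alternatives. The script was tested on simulated data with 200 changed genes.

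The members and lists were chosen with earlier results of these data known. Every member is named. Pathway genes, apart from 1 that is not reported here, are named if they passed, or as the 2 smallest p in their list with others whose ages do not overlap at 10 CPM or more, up to 4 per list. Genes of a similar pattern are the 3 with the highest correlation.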

Additional observations from a re-analysis of the deposited data

Results flagged for a closer look

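The zone by age term of Sds, the serine dehydratase gene, passed the threshold (-1.267, adjusted p = 0.0207, edgeR), so the difference between the ends of the lobule was tested to differ between the ages. Sds stood at 825.6 and 117.4 CPM at the periportal and pericentral ends of young 1, at 922.1 and 183.4 CPM in young 2, at 485.1 and 32.7 CPM in aged 1 and at 665.5 and 48.8 CPM in aged 2. The call did not hold without young replicate 1 (-1.51) or without young replicate 2 (-1.03), which leave 1 young library.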

How the results depend on the processing

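Depth kept Ddit4 out of the class comparisons, and the causes of the differences below were not tested. Without 1 library, 1 age holds a single library. Counts there for age, class by age and zone by age rest on the spread within the other age. Members that passed changed in number as follows. Age in hepatocyte-like nuclei gave 1 with no filter and 1 with DESeq2 (0 before). Endothelial-like against hepatocyte-like nuclei gave 2 with no filter and 3 with the hepatocyte RNA filter (1 before). Macrophage-like nuclei gave 1 with RLE, without doublet removal and with at most 1% mitochondrial UMIs, and 0 with equal numbers (2 before). The zone gave 2 with no filter and 1 without doublet removal, at 1% mitochondrial UMIs and with equal numbers, and the zone by age term 1 with equal numbers (0 before). Leaving out 1 library gave 0 to 1 members for age in macrophage-like nuclei, 0 to 2 and 2 to 3 for macrophage-like and stellate/fibroblast-like against hepatocyte-like nuclei, 0 to 1 for the macrophage-like class by age term, 0 to 1 for the zone and 0 to 2 for zone by age.

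Genes that passed for age in hepatocyte-like nuclei (2) numbered 5 with RLE, 1787 with no filter, 5 without doublet removal, 910 with DESeq2 and 2 to 1032 without 1 library. In stellate/fibroblast-like nuclei (0) they numbered 2 with RLE, 268 with no filter, 32 with DESeq2 and 0 to 178. In endothelial-like nuclei (0) they numbered 40 with no filter, 2 at 1% mitochondrial UMIs, 2 with DESeq2 and 0 to 251. In macrophage-like nuclei (723) they numbered 1124 with no filter, 361 without doublet removal, 353 at 1% mitochondrial UMIs, 1 with equal numbers, 327 with DESeq2 and 0 to 1222.

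Against hepatocyte-like nuclei, stellate/fibroblast-like (4385) gave 2347 genes with equal numbers and 2751 to 4167 without 1 library. Endothelial-like (931) gave 2572 with no filter, 602 at 1000 UMIs, 577 at 1% mitochondrial UMIs, 424 with equal numbers, 2721 with the hepatocyte RNA filter and 641 to 907. Macrophage-like (1311) gave 3361 with no filter, 244 with equal numbers and 502 to 1340. The class by age term gave, for stellate/fibroblast-like (4), 341 with no filter, 16 without doublet removal, 8 at 1000 UMIs, 110 at 1% mitochondrial UMIs, 2 with equal numbers, 15 with the hepatocyte RNA filter and 0 to 552. For endothelial-like (0) it gave 172 with no filter, 51 with the hepatocyte RNA filter and 0 to 715. For macrophage-like (141) it gave 468 with no filter, 214 without doublet removal, 259 at 1% mitochondrial UMIs, 0 with equal numbers and 0 to 518. The zone (2703) gave 1749 with equal numbers and 1885 to 2476. Zone by age (20) gave 0 with no filter, 13 without doublet removal, 12 at 1000 UMIs, 10 with zones of 50% and 0 to 318.

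Same-numbered libraries correlated at -0.196 in hepatocyte-like, 0.0999 in stellate/fibroblast-like, 0.102 in endothelial-like and -0.146 in macrophage-like nuclei. These weak values of both signs, from 2 libraries per age, cannot tell whether the numbers pair the libraries. With the replicate block 2 genes and 0 members passed for age in hepatocyte-like nuclei, 155 genes in stellate/fibroblast-like, 1 in endothelial-like and 306 in macrophage-like nuclei. A crossed pairing, added after seeing the data, gave 416 genes in hepatocyte-like and 251 in macrophage-like nuclei.

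Signs turned for Zbtb16 in stellate/fibroblast-like against hepatocyte-like nuclei with no filter (-0.21), for Tsc22d3 in endothelial-like nuclei with RLE (0.0054), and for Klf9 in stellate/fibroblast-like nuclei with no filter (-0.091) and in macrophage-like nuclei with equal numbers (0.022). Without 1 library the ranges crossed 0 for the age differences of Fkbp5 (-0.14 to 0.48), Zbtb16 (-0.44 to 1.05) and Ciart (-2.63 to 0.36) in hepatocyte-like nuclei, of Sgk1 in stellate/fibroblast-like (-1.64 to 0.19), endothelial-like (-2.14 to 0.17) and macrophage-like nuclei (-0.049 to 2.29), and of Tsc22d3 in macrophage-like nuclei (-1.50 to 0.26). The class differences of Zbtb16 in stellate/fibroblast-like (-0.068 to 0.19) and Tsc22d3 in endothelial-like nuclei (-0.18 to 0.064) crossed 0 as well. Macrophage-like nuclei could not be fitted at 1000 UMIs or with the hepatocyte RNA filter, with under 20 nuclei in a library.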
